A study of Mus musculus with 9 samples.

Results

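The genes described here encode the receptors for serotonin, noradrenaline and adrenaline, acetylcholine at muscarinic sites, and 3 of the dopamine receptors. They were taken by gene symbol, as names that begin with Htr, Adra, Adrb or Chrm followed by a number, with Drd3, Drd4 and Drd5 added and Htr5b left out. The genes described are 29 of the 21899 in the deposited table: 13 serotonin, 3 dopamine, 6 alpha-adrenergic, 2 beta-adrenergic and 5 muscarinic receptor genes.

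RNA was sequenced from tissue described as the paraventricular thalamus (PVT), a nucleus at the thalamic midline, of wild-type mice, labelled as brain, with 3 libraries in each of 3 groups. The PBS group received PBS intraperitoneally and was sampled after 1 day. The LPS groups were given lipopolysaccharide (LPS, an outer membrane lipid of Gram-negative bacteria that provokes inflammation) by the same route and were sampled after 1 day or after 7 days. No PBS group at 7 days was used here, so day and treatment cannot be told apart in the comparison of LPS at 7 days with PBS. Strain, age, sex and LPS dose are not given in the labels used here, and the labels do not say whether libraries came from separate animals, so the p-values may measure technical spread only.

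Most of these receptors act through heterotrimeric G proteins. Receptors coupled to Gs raise cyclic AMP, those coupled to Gi/o lower it and open potassium channels, and those coupled to Gq release calcium through phospholipase C, whereas the serotonin Htr3 subunits form a cation channel. In the midline thalamus, serotonin, noradrenaline and acetylcholine arrive from brainstem nuclei and adjust how neurons respond across sleep, waking and arousal.

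The libraries held between 13211422 and 17210526 gene counts. The 11 genes listed as PVT and thalamic markers, among them Calb2, Tcf7l2 and Gbx2, were all detected, and their summed level was 1109 to 1111 CPM (counts scaled to library size with TMM factors) in PBS, 1001 to 1015 after LPS at 1 day and 944 to 966 at 7 days. Against PBS, 8 of the 11 were lower and 2 higher at 1 day, and 8 lower and 1 higher at 7 days. Their median log2 fold change was -0.40 at 1 day and -0.38 at 7 days. Summed markers of some other regions differed between the groups more widely. The 10 striatal markers summed to 1357 to 1388 CPM in PBS, 883 to 892 at 1 day and 582 to 599 at 7 days, with 9 of 10 lower at 1 day and 10 of 10 lower at 7 days against PBS. The 9 cerebellar markers summed to 78.4 to 88.7 CPM in PBS, 66.2 to 70.7 at 1 day and 1367 to 1405 at 7 days, with 9 of 9 higher at 7 days against PBS. The 6 hindbrain markers summed to 0.294 to 0.506, 0.374 to 0.791 and 60.4 to 66.4 CPM in the same order, and all 4 that could be tested were higher at 7 days. Of the hindbrain markers, Hoxa5, Hoxb3, Hoxb5 and Hoxc4 were at 0 in every PBS library, and Hoxa5, Hoxb5 and Hoxc4 also in every library of LPS at 1 day. The 9 cortical markers summed to 1039 to 1087 CPM in PBS, 1217 to 1260 at 1 day and 924 to 949 at 7 days. The 5 markers of serotonin and noradrenaline neurons, the source cells of these transmitters, summed to 0.750 to 1.46, 1.31 to 1.58 and 7.04 to 8.82 CPM, with Slc6a4 at 0 in PBS. The 7 microglial markers summed to 237 to 253, 245 to 260 and 236 to 243 CPM, and the 8 astrocyte markers to 3635 to 3751, 4088 to 4112 and 4038 to 4114 CPM. The 8 oligodendrocyte markers summed to 7205 to 7558, 7167 to 7200 and 9596 to 10215 CPM, with 7 of 8 higher at 7 days against PBS, the 7 pericyte and smooth muscle markers to 203 to 209, 224 to 231 and 309 to 319 CPM, and the 7 endothelial markers to 263 to 273, 283 to 293 and 318 to 332 CPM. The 7 markers of the habenula, which adjoins the PVT, summed to 77.6 to 82.2, 53.2 to 55.2 and 52.5 to 55.8 CPM. The part of these cells and regions in the receptor values was not tested. Striatal and cortical markers were detected in every group, and the share of PVT tissue in a library was not measured. The 4 Y-linked genes summed to at most 0.0588 CPM in the PBS libraries. In the LPS groups they summed to 81.5 to 85.2 CPM at 1 day and 90.5 to 102 CPM at 7 days. Treatment therefore cannot be told apart from Y-linked level, and with it from sex, in the comparison with PBS at 1 day or at 7 days. In tissue samples such as these, fewer cells of a type and less RNA per cell cannot be told apart.

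**Figure D1:**
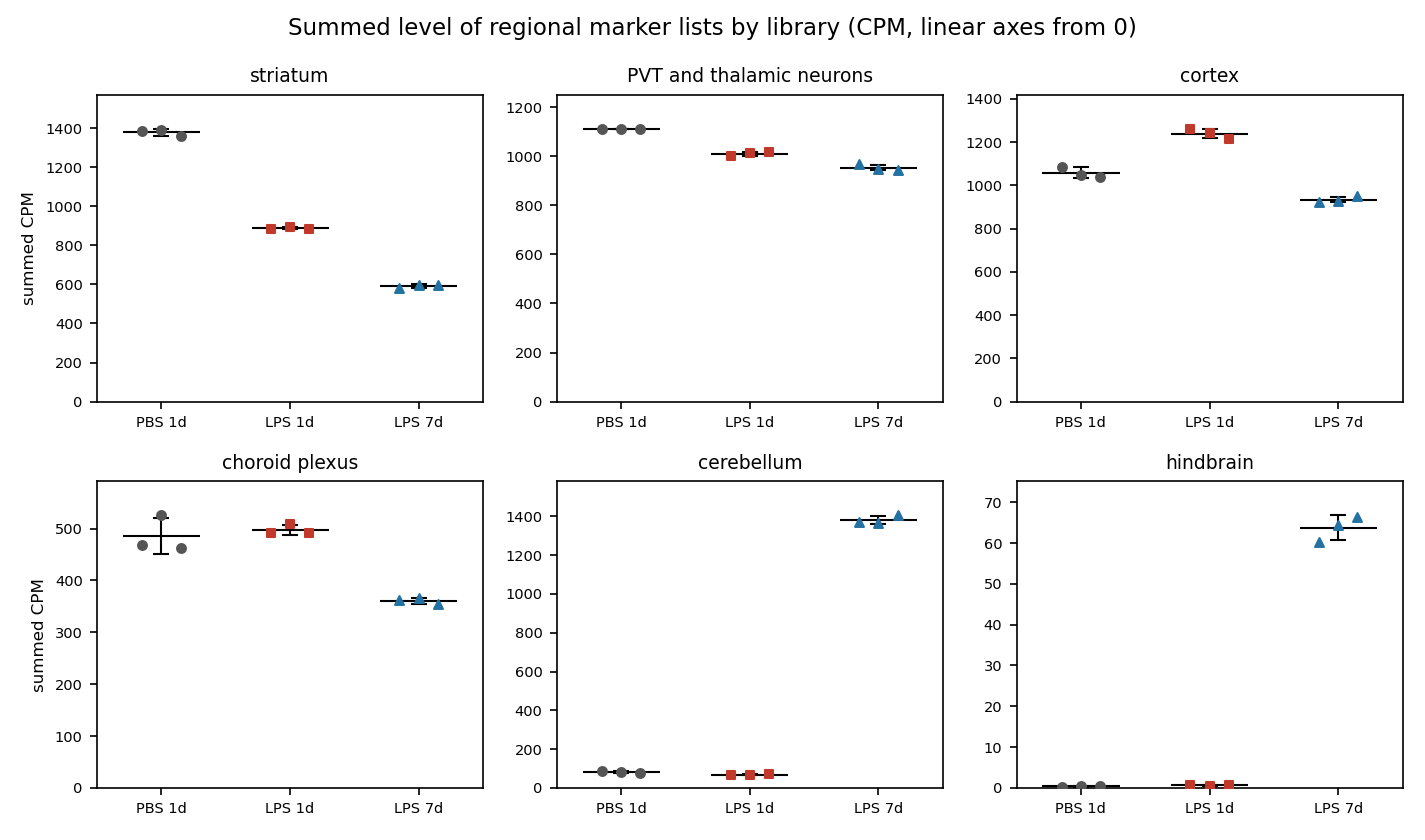
Summed CPM of the regional marker lists, with 1 point for each library, a bar at the mean and an error bar of 1 SD over 3 libraries. The striatal sum is lower in each LPS group than in PBS, and the cerebellar sum reaches 1367 to 1405 CPM in the libraries of LPS at 7 days and at most 88.7 CPM in the others.

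Ranked in PBS by deposited FPKM, which divides by gene length and so allows levels to be compared between genes, the muscarinic receptor genes Chrm4 and Chrm1 were highest. Chrm4 had 26.8 ± 1.02 FPKM (SD, n = 3), Chrm1 20.4 ± 0.389 and the serotonin receptor gene Htr2c 13.8 ± 0.686, followed by Adrb1 at 10.8 ± 0.27. The ranges of these 4 genes did not overlap. Adra2c (8.29 FPKM), Adra2a (7.89), Adra1b (7.74) and Htr7 (7.72) came next, with library ranges that overlapped from each gene to the next. Chrm3 (5.999) and Htr2a (5.88), Chrm2 (4.92) and Adra1d (4.75), and Htr1a (3.91), Htr5a (3.73) and Htr1b (3.34) likewise overlapped from each gene to the next within each set. Htr1a and Htr1b did not overlap each other. Below them stood Htr6 (2.91), Chrm5 (2.56), Htr1d (2.02) and Adra1a (1.52), and then Adra2b (1.24), Htr4 (1.17), Htr3a (1.11) and Drd3 (1.05), whose ranges overlapped in turn. The remaining 6 genes were below 1 FPKM: Htr1f (0.795), which overlapped Drd3, Adrb3 (0.375) and Drd5 (0.265), which overlapped, Drd4 (0.118) and Htr2b (0.088), which overlapped, and Htr3b (0.0349). The order changed at the top: Chrm1 (22.2) stood above Chrm4 (19.6) after LPS at 1 day, and the means were 12.9 and 12.5 FPKM at 7 days. The deposited gene models of Chrm4 and Chrm5 are 1440 and 1599 bases long, the shortest of the 29, which enters their FPKM.

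Summed over the 29 genes, receptor FPKM was 151 ± 1.52 in PBS, 134 ± 3.88 at 1 day and 109 ± 1.29 at 7 days (SD, n = 3 each). The muscarinic sum was 62.1, 58.8 and 61.3 FPKM in the PBS libraries, 56.1, 53.7 and 52.1 at 1 day and 35.5, 37.5 and 36.8 at 7 days. The serotonin sum was 44.8, 47.4 and 47.3 FPKM in PBS, 40.7, 39.8 and 39.7 at 1 day and 37.7, 36.2 and 35.9 at 7 days. Both sums were separated without overlap between all 3 groups. The alpha-adrenergic sum was 31.4 ± 0.97, 30.1 ± 1.21 and 26.8 ± 1.53 FPKM in the PBS group and at 1 and 7 days after LPS. The sum of the 2 beta-adrenergic genes was 11.2 ± 0.343, 8.07 ± 0.719 and 7.84 ± 0.36 FPKM, and the sum of the 3 dopamine genes 1.44 ± 0.39, 1.29 ± 0.0754 and 1.23 ± 0.225 FPKM. These sums are dominated by their most abundant members and were not tested.

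**Figure D2:**
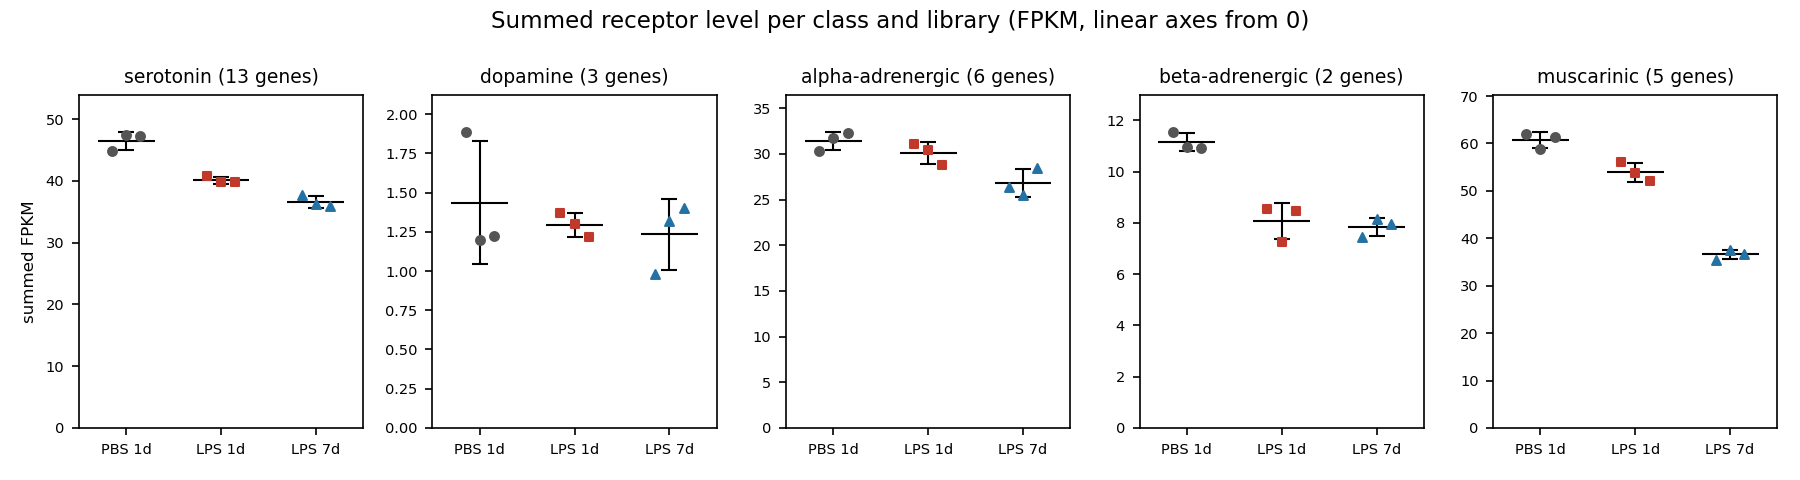
Summed deposited FPKM of each receptor class, with 1 point for each library, a bar at the mean and an error bar of 1 SD over 3 libraries. The muscarinic sum falls from 58.8 to 62.1 FPKM in the PBS libraries to 35.5 to 37.5 FPKM in the libraries of LPS at 7 days.

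Of the 29 genes, 26 had enough counts to be tested with edgeR. A gene is called higher or lower here when its edgeR adjusted p was under 0.05. At 1 day after LPS against PBS, 10 receptor genes were lower, 2 were higher and 14 were not called. The 12 called are 46.2% of the 26 tested, beside 49.1% of all 14837 genes tested, so the share called was near that of all genes. The 10 lower genes are 38.5% beside 24.2% of all genes, and the 2 higher genes 7.69% beside 24.9%. At 7 days after LPS against PBS, 14 were lower, 0 were higher and 12 were not called. The 14 called are 53.8% beside 35.6% of all genes tested, all of them lower beside 18.9% of all genes lower and 16.8% higher. The count of higher genes was also 0 at an unadjusted edgeR p under 0.05 and 0 by DESeq2. From 1 day to 7 days after LPS, 11 were lower, 1 was higher and 14 were not called, so that 46.2% were called beside 56.6% of all genes, 42.3% lower beside 29.1% and 3.85% higher beside 27.5%. The comparisons share libraries (the PBS libraries stand in the first and the second, those of 1 day in the first and the third, those of 7 days in the second and the third), so they are not separate evidence. The median log2 fold change of the tested receptor genes was -0.09 at 1 day and -0.39 at 7 days against PBS, and -0.23 from 1 day to 7 days, where the medians of all genes were -0.01, 0.00 and 0.00. The small counts of higher genes changed when single libraries were left out. The rise of Htr3a at 1 day was called in all 17 alternatives. At 1 day the count was 1 without PBS replicate 2 or without LPS 1 day replicate 1, and against PBS at 7 days it was 1 without PBS replicate 1. From 1 day to 7 days it was 0 without LPS 1 day replicate 2 or LPS 7 days replicate 1, and 2 without LPS 1 day replicate 1.

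**Figure D3:**
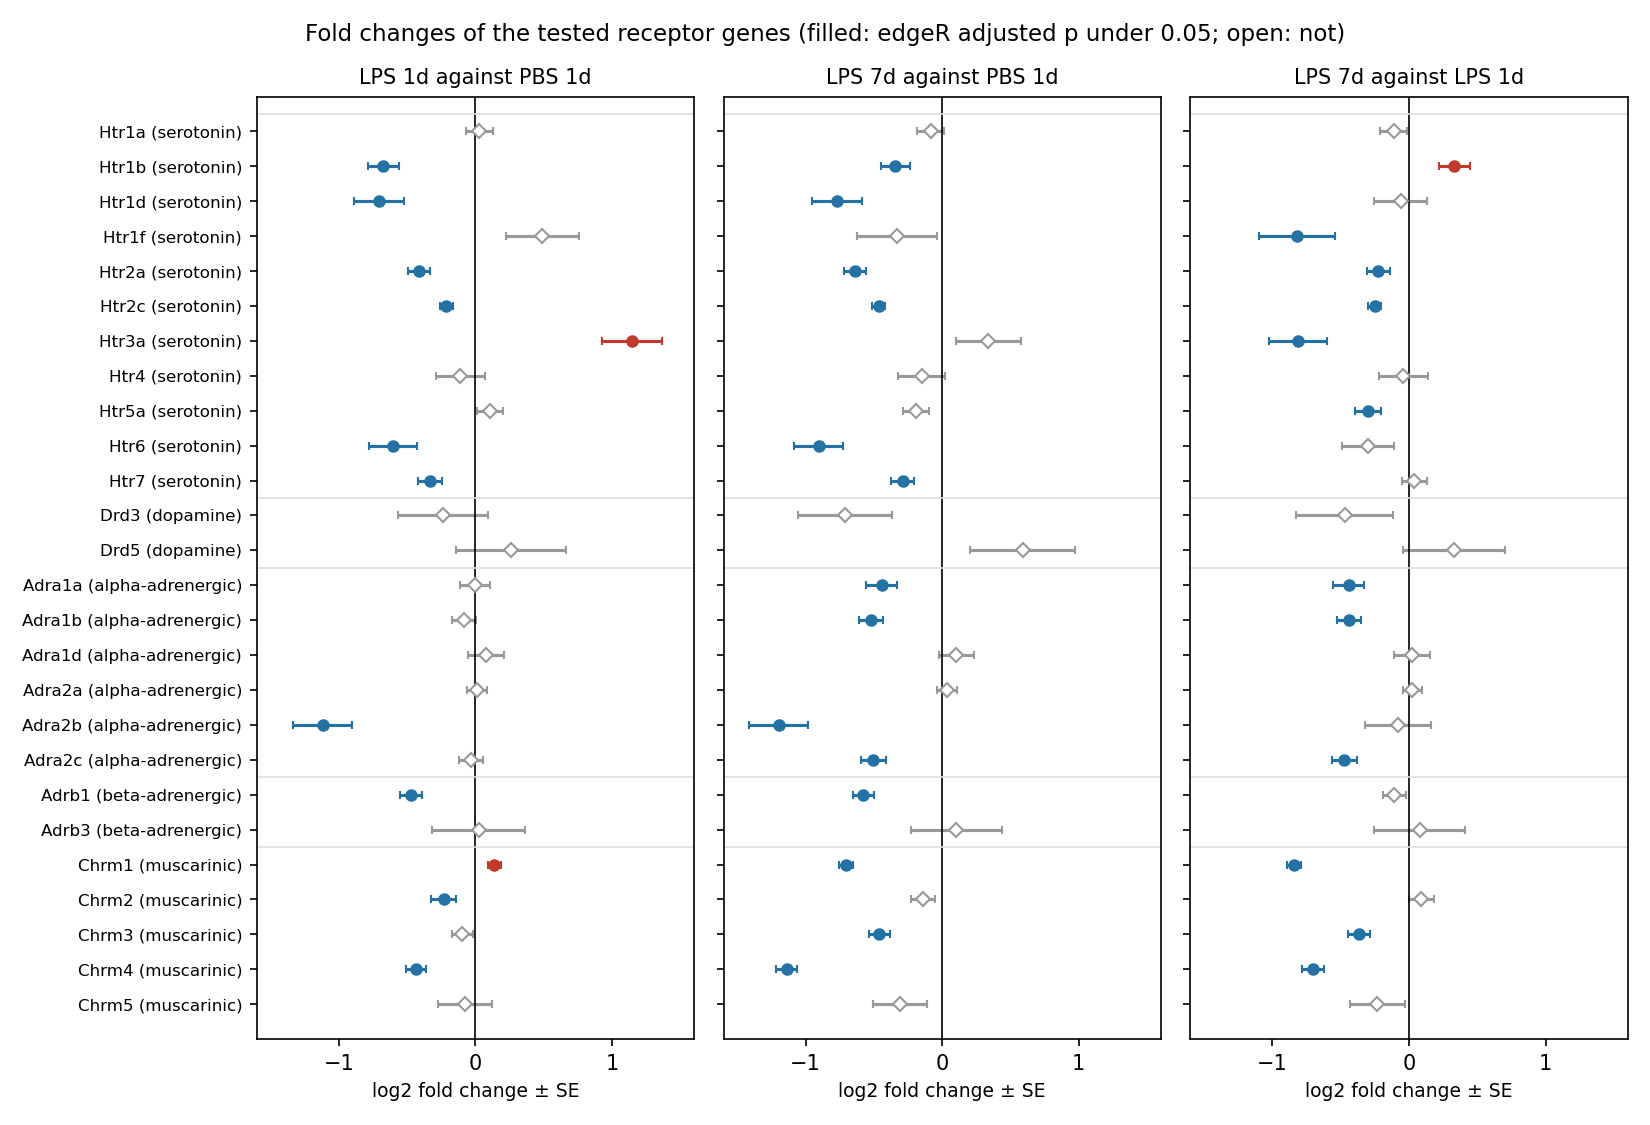
Log2 fold change of each tested receptor gene in the 3 comparisons, with error bars of 1 standard error and filled points for genes called by edgeR. Most filled points lie left of 0, Htr3a stands at 1.15 at 1 day, and Adra2b at -1.20 and Chrm4 at -1.14 at 7 days against PBS.

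RefSeq promoter windows (GRCm38.p6) were matched for 23 of the 29 genes, giving 26 windows, including all 10 genes lower at 1 day. The 250 bases before each annotated start are used here. The GC box GGGCGG, read on either strand, was in a window of 7 of these 10 genes and of 5 of the other 13 matched genes, beside 32.7% of all 32851 windows counted singly. The other 13 include Drd4, Htr2b and Htr3b, which were not tested for a change. Htr3a and Chrm1, the genes higher at 1 day, had no matched window. The cyclic AMP response element TGACGTCA was in none of the 23 genes (1.55% of all windows), and the TATA box TATAAA in 1, Adra2a (12.4% of all windows). These are descriptions of letters in a window, and a match is not a bound site. The windows of the 3 genes with the lowest log2 fold change at 7 days against PBS, Adra2b (chr2:127362929-127363178, plus strand), Chrm4 (chr2:91921939-91922188, plus strand) and Htr6 (chr4:139075571-139075820, minus strand, 1 of its 2 windows), all hold GC boxes. Htr1b (chr9:81633833-81634082, minus strand), which fell at 1 day and has no GC box in its window, is shown for contrast. Bases after the start were found in an annotated transcript of the same gene for 17 of the 23 genes. Htr6 and Htr1b are among these, and Adra2b and Chrm4 are not. All are shown 5′ to 3′ along the annotated strand, with GC boxes on either strand in capitals.
Adra2b: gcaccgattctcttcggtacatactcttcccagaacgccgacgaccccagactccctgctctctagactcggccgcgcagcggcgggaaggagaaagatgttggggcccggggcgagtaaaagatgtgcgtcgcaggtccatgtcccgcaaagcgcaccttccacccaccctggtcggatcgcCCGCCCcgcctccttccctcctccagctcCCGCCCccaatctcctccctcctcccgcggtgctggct
Chrm4: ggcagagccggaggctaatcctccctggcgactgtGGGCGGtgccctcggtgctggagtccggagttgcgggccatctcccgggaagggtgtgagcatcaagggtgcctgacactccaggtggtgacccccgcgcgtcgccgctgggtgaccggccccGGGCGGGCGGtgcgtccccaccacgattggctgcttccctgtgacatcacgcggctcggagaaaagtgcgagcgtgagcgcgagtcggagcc
Htr6: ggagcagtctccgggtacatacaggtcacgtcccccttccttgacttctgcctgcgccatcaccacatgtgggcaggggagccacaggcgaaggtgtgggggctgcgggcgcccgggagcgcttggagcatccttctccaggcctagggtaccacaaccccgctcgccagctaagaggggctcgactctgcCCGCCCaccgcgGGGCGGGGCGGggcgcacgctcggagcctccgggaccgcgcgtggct
Htr1b: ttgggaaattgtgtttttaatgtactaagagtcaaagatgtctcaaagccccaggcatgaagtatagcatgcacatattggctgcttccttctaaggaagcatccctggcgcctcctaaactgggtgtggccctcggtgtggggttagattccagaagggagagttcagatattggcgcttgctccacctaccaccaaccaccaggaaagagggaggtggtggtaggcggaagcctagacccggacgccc
Adra2b holds 2 GC boxes, Chrm4 3 and Htr6 3, all within the 250 bases.

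Among the serotonin receptor genes, 6 of the 11 tested fell and 1 rose at 1 day against PBS, where 24.2% of all genes were lower and 24.9% higher. At 7 days 6 of 11 were lower and 0 higher, where 18.9% of all genes were lower and 16.8% higher. The Htr1 genes encode Gi/o-coupled receptors, several of which sit on axon terminals and hold back transmitter release. Htr1b, such a terminal receptor, had 15.6, 15.5 and 16.5 CPM in PBS, 10.4, 8.85 and 10.6 at 1 day and 13.9, 11.97 and 11.7 at 7 days. No library of 1 day reached the lowest of PBS, and the 7 day libraries lay between both groups. Its log2 fold change was -0.68 ± 0.11 (SE) at 1 day (edgeR adjusted p = 1.99e-06) and -0.34 ± 0.11 at 7 days (edgeR adjusted p = 0.00976), and 0.33 ± 0.12 from 1 day to 7 days (edgeR adjusted p = 0.0126). The call at 7 days against PBS was lost without LPS 7 days replicate 3 (edgeR adjusted p = 0.0566), and the rise from 1 day to 7 days without LPS 1 day replicate 2 (0.0927) or LPS 7 days replicate 1 (0.0928).

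Htr1d, a second terminal receptor, had 5.64, 7.47 and 6.41 CPM in PBS, 3.47, 4.98 and 3.41 at 1 day and 4.23, 3.95 and 3.25 at 7 days. It was lower in every LPS library than in any PBS library, with log2 fold changes of -0.71 ± 0.18 (edgeR adjusted p = 0.00109) and -0.77 ± 0.18 (edgeR adjusted p = 0.000527). Htr1a, found on cell bodies and dendrites and an autoreceptor on serotonin neurons, had 17.9, 18.4 and 16.7 CPM in PBS, 20.2, 15.4 and 18.7 at 1 day and 17.0, 16.4 and 16.7 at 7 days. Its groups overlapped and it was called in no comparison, with log2 fold changes from -0.11 to 0.03. Htr1f had 1.88, 2.53 and 1.77 CPM in PBS, 2.08, 2.55 and 3.96 at 1 day and 1.23, 2.04 and 1.66 at 7 days. It fell from 1 day to 7 days (log2 fold change -0.82 ± 0.28, edgeR adjusted p = 0.0101), a call that was lost without LPS 1 day replicate 3 (-0.51, edgeR adjusted p = 0.182), its highest library, or without LPS 7 days replicate 1 (-0.65, edgeR adjusted p = 0.0638). Htr5a, another receptor usually placed with Gi/o, had 22.4, 17.4 and 20.7 CPM in PBS, 24.0, 20.4 and 21.2 at 1 day and 17.4, 17.5 and 18.2 at 7 days. It fell from 1 day to 7 days (-0.30 ± 0.10, edgeR adjusted p = 0.00593), not when LPS 1 day replicate 1 was left out (-0.23, edgeR adjusted p = 0.0567). Against PBS at 7 days its log2 fold change was -0.19 ± 0.10 (edgeR adjusted p = 0.114), and -0.29 (edgeR adjusted p = 0.0219) without PBS replicate 2, its lowest PBS library.

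Both tested Gq-coupled genes of the Htr2 family fell at each time against PBS. Htr2a, the cortical receptor through which classic hallucinogens act, had 32.8, 34.0 and 32.6 CPM in PBS, 23.1, 26.5 and 24.9 at 1 day and 22.9, 20.4 and 20.6 at 7 days. Each LPS library was below each PBS library, with log2 fold changes of -0.41 ± 0.08 (edgeR adjusted p = 2.47e-05) at 1 day and -0.64 ± 0.08 (edgeR adjusted p = 3.69e-09) at 7 days. The further fall from 1 day to 7 days (-0.23 ± 0.08, edgeR adjusted p = 0.0187) was not called by DESeq2 (adjusted p = 0.0508) or with library total scaling (-0.17, edgeR adjusted p = 0.0825), nor without LPS 1 day replicate 2 (-0.18, edgeR adjusted p = 0.111), LPS 7 days replicate 2 (-0.19, edgeR adjusted p = 0.0809) or LPS 7 days replicate 3 (-0.20, edgeR adjusted p = 0.0688). For each 1000 CPM of the cortical marker sum there were 31.3, 20.05 and 22.8 CPM of Htr2a on average in the PBS group and at 1 and 7 days after LPS, so this ratio was lowest at 1 day, where the cortical sum was highest, and the part of cortex in the result was not tested. Htr2c, known for its role in feeding and for its abundance in choroid plexus, lies on chromosome X (chrX:145745509-145980273, plus strand, GRCm39). It had 124, 128 and 135 CPM in PBS, 109.7, 109.5 and 114 at 1 day and 96.0, 89.7 and 94.5 at 7 days. The groups did not overlap, and log2 fold changes were -0.21 ± 0.05 (edgeR adjusted p = 0.000185), -0.47 ± 0.05 (edgeR adjusted p = 1.08e-11) and, from 1 day to 7 days, -0.25 ± 0.05 (edgeR adjusted p = 1.63e-05). The 8 choroid plexus markers summed to 463 to 526 CPM in PBS, 491 to 508 at 1 day and 355 to 366 at 7 days. For each 1000 CPM of that sum there were 267, 224 and 259 CPM of Htr2c on average in the PBS group and at 1 and 7 days after LPS. Ttr made up most of the choroid plexus sum, with a mean of 389 CPM in PBS, where the sum had a mean of 486. At 7 days against PBS, 7 of the 8 markers were lower and 0 higher, with a median log2 fold change of -1.07. Ttr fell by less (-0.30 ± 0.04). At 1 day 2 of the 8 were higher and 0 lower. The ratio thus mainly reflects Ttr and does not stand for the other markers. The part of the choroid plexus in the result, and that of the Y-linked difference, was not tested.

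Htr3a, the ion channel subunit without which the channel does not form, moved the other way at 1 day (chr9:48810513-48822399, minus strand, GRCm39). It had 2.17, 2.85 and 1.98 CPM in PBS, 4.86, 6.67 and 4.02 at 1 day and 2.70, 3.02 and 3.14 at 7 days. Every library of 1 day was above every other library. The mean was 2.22 times that of PBS (log2 fold change 1.15 ± 0.22, edgeR adjusted p = 2.28e-05), then fell by 0.81 ± 0.21 on the log2 scale from 1 day to 7 days (edgeR adjusted p = 0.000954), leaving 0.34 ± 0.24 against PBS (edgeR adjusted p = 0.285). In cortex Htr3a marks a class of interneurons, and cortical markers were also higher at 1 day (4 of 9 higher, 1 lower), as were hippocampal and dentate markers, which summed to 360 to 376 CPM in PBS, 429 to 435 at 1 day and 311 to 348 at 7 days. Their part in the result was not tested. Its partner subunit Htr3b was too low to test, with 4, 1 and 4 counts over the 3 libraries of the PBS group and of 1 and 7 days after LPS. The ratio of 1 day to PBS, scaled for library size, was 0.261 with an exact 95% interval of 0.0053 to 2.64 for counting error only. The remaining untested serotonin gene, Htr2b, had 9, 18 and 8 counts, a ratio of 1 day to PBS of 2.09 (0.891 to 5.28) and of 7 days to 1 day of 0.409 (0.154 to 0.988). Htr2b overlaps Psmd1 on the other strand, and the strandedness of the counts is not given in the sources used here, so reads of both genes may be mixed.

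The Gs-coupled serotonin receptor genes were Htr4, Htr6 and Htr7. Htr6, a receptor at its highest in striatum in the adult brain, had 7.17, 6.83 and 6.54 CPM in PBS, 5.16, 5.05 and 3.41 at 1 day and 2.88, 3.64 and 4.44 at 7 days. All LPS libraries were below the PBS libraries, with log2 fold changes of -0.60 ± 0.18 (edgeR adjusted p = 0.00388) and -0.90 ± 0.18 (edgeR adjusted p = 5.18e-05). The call at 1 day was lost without LPS 1 day replicate 3, its lowest library there (-0.43, edgeR adjusted p = 0.0666). Without that library a fall from 1 day to 7 days was called instead (-0.48, edgeR adjusted p = 0.047). Htr7, the thalamic Gs-coupled receptor known for its part in circadian timing, had 24.0, 27.3 and 27.9 CPM in PBS, 23.0, 19.4 and 20.6 at 1 day and 22.0, 22.2 and 20.5 at 7 days. It was lower in both LPS groups, by -0.33 ± 0.09 (edgeR adjusted p = 0.00153) and -0.29 ± 0.09 (edgeR adjusted p = 0.00617) on the log2 scale, the latter not called without PBS replicate 3 (-0.24, edgeR adjusted p = 0.0516). Between 1 day and 7 days Htr7 was not called (0.04 ± 0.09). The PVT and thalamic markers moved in the same comparisons, with 8 of 11 lower and 2 higher at 1 day and 8 lower and 1 higher at 7 days. Of all genes, 24.2% were lower and 24.9% higher at 1 day, and 18.9% lower and 16.8% higher at 7 days. There were 23.8, 20.9 and 22.6 CPM of Htr7 for each 1000 CPM of the PVT and thalamic marker sum in the PBS group and at 1 and 7 days after LPS. Htr4 had 5.05, 6.01 and 6.20 CPM in PBS, 5.24, 5.05 and 5.66 at 1 day and 6.19, 5.80 and 3.55 at 7 days, and was called in no comparison.

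The dopamine receptor genes taken here were low. Drd3, a Gi/o-coupled receptor of the ventral striatum, had 2.35, 1.46 and 1.64 CPM in PBS, 1.77, 1.56 and 1.34 at 1 day and 0.49, 1.42 and 1.42 at 7 days, and was not called, with log2 fold changes of -0.24 ± 0.33 and -0.71 ± 0.34 (edgeR adjusted p = 0.57 and 0.102). Drd5, coupled to Gs like Drd1, had 1.41, 0.57 and 0.545 CPM in PBS, 0.771, 1.06 and 1.22 at 1 day and 1.35, 1.23 and 1.30 at 7 days. Drd5 was not called at 7 days (0.59 ± 0.38, edgeR adjusted p = 0.242), but passed without PBS replicate 1 (1.20, edgeR adjusted p = 0.045), the highest of all 9 libraries. Drd4, a Gi/o-coupled receptor, was not tested, with 19, 13 and 25 counts over the libraries of the PBS group and of 1 and 7 days after LPS, and a ratio of 7 days to PBS of 1.26 (exact 95% interval 0.669 to 2.43, for counting error only). Drd1 and Drd2, the abundant striatal pair, are listed among the striatal markers and stand beside these. Drd1 had 52.6 ± 1.19, 32.0 ± 2.25 and 20.01 ± 0.675 CPM (log2 fold change -0.72 ± 0.07 at 1 day and -1.39 ± 0.07 at 7 days), and Drd2 87.9 ± 1.12, 42.9 ± 2.80 and 41.7 ± 2.14 CPM (-1.03 ± 0.06 and -1.08 ± 0.06).

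Most calls among the alpha-adrenergic genes were at 7 days. At 1 day 1 of 6 fell against PBS and 0 rose, beside 24.2% of all genes lower, and at 7 days 4 of 6 fell and 0 rose, beside 18.9% lower. Adra2b, a Gi/o-coupled alpha-2 receptor known from thalamus, lies at chr2:127205128-127209141 on the plus strand (GRCm39). It had 5.64, 4.75 and 4.63 CPM in PBS, 2.16, 2.43 and 2.31 at 1 day and 2.14, 1.91 and 2.48 at 7 days. Every LPS library was below every PBS library, and the ratio of means was 0.459 at 1 day (log2 fold change -1.12 ± 0.22, edgeR adjusted p = 2.5e-05) and 0.436 at 7 days (-1.20 ± 0.21, edgeR adjusted p = 8.89e-06). For each 1000 CPM of the PVT and thalamic marker sum there were 4.51 ± 0.494, 2.28 ± 0.124 and 2.29 ± 0.315 CPM of Adra2b in the PBS group and at 1 and 7 days after LPS (SD, n = 3). This ratio has no test, and the part of thalamic tissue in the Adra2b values was not tested. Within the summed FPKM of the alpha class, Adra2b made up 3.96% in PBS, 1.87% at 1 day and 2.07% at 7 days.

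Of the other alpha-2 genes, Adra2a, the main autoreceptor of noradrenaline neurons, had 38.8, 39.6 and 36.6 CPM in PBS, 41.6, 37.5 and 37.1 at 1 day and 40.9, 35.3 and 41.7 at 7 days. It was called in no comparison, with log2 fold changes of 0.01 ± 0.07 at 1 day and 0.04 ± 0.07 at 7 days. Adra2c, a second autoreceptor, also postsynaptic in striatum, had 27.3, 28.6 and 30.2 CPM in PBS, 28.7, 31.8 and 23.8 at 1 day and 19.3, 20.7 and 20.7 at 7 days. It was lower at 7 days than in PBS (-0.50 ± 0.09, edgeR adjusted p = 6.46e-06) and than at 1 day (-0.47 ± 0.09, edgeR adjusted p = 1.19e-05). The Gq-coupled alpha-1 genes Adra1a and Adra1b were likewise called at 7 days and not at 1 day against PBS. Adra1a had 14.3, 13.2 and 12.5 CPM in PBS, 13.5, 12.8 and 13.9 at 1 day and 9.44, 10.1 and 10.1 at 7 days (against PBS -0.44 ± 0.11, edgeR adjusted p = 0.00126). Adra1b had 24.4, 27.5 and 27.1 CPM in PBS, 23.4, 24.5 and 26.4 at 1 day and 18.1, 16.5 and 20.2 at 7 days (-0.52 ± 0.09, edgeR adjusted p = 2.94e-06). Both were also lower at 7 days than at 1 day, by -0.44 ± 0.11 for Adra1a (edgeR adjusted p = 0.000786) and -0.44 ± 0.09 for Adra1b (edgeR adjusted p = 3.98e-05). Adra1d had 8.52, 8.48 and 10.2 CPM in PBS, 10.9, 8.85 and 9.07 at 1 day and 8.58, 9.81 and 10.8 at 7 days, and was called in no comparison. The 7 day libraries with these lower values are those with cerebellar and hindbrain markers, and the part of those regions was not tested.

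The beta-adrenergic receptors couple to Gs, and Adrb1 fell in both LPS groups. Adrb1, the receptor that dominates in forebrain neurons, had 37.9, 36.2 and 35.9 CPM in PBS, 27.7, 23.7 and 28.0 at 1 day and 23.0, 25.5 and 25.2 at 7 days. No LPS library reached the PBS range, and log2 fold changes were -0.47 ± 0.08 (edgeR adjusted p = 1.68e-06) and -0.58 ± 0.08 (edgeR adjusted p = 2.17e-08), with -0.11 ± 0.08 from 1 day to 7 days (edgeR adjusted p = 0.272). In FPKM, Adrb1 had 10.8 ± 0.27 in PBS (SD, n = 3), with means of 7.69 at 1 day and 7.42 at 7 days. Adrb3, the receptor best known from fat, had 1.59, 1.01 and 1.23 CPM in PBS, 1.62, 1.25 and 1.10 at 1 day and 1.41, 1.48 and 1.24 at 7 days, and was called in no comparison.

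**Figure D4:**
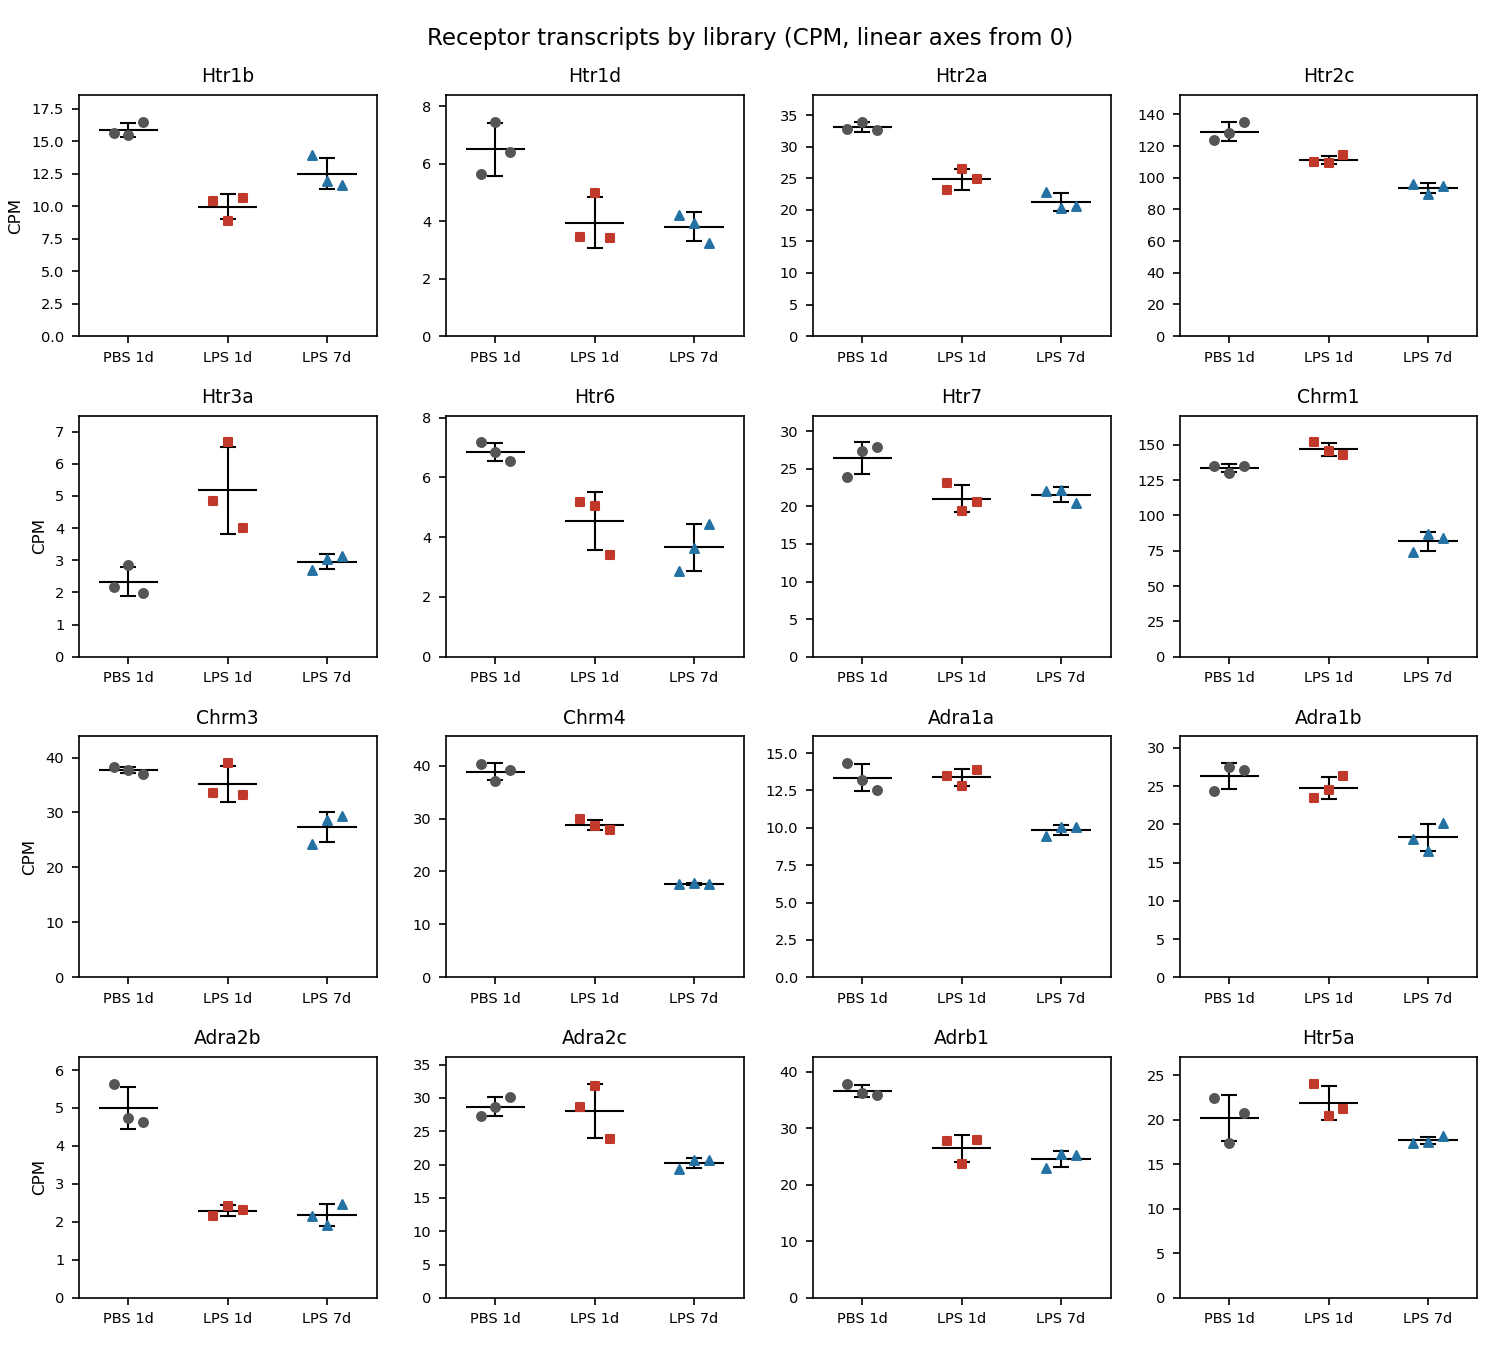
CPM of receptor genes in each library, with 1 point for each library, a bar at the mean and an error bar of 1 SD over 3 libraries, and each panel on its own axis from 0. Htr3a is highest at 1 day, Adra2b lies near 2 CPM in both LPS groups, and Chrm4 steps down from PBS to 1 day to 7 days.

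The muscarinic genes held the largest summed level of the 5 classes. At 1 day 2 of 5 fell and 1 rose, and at 7 days 3 of 5 fell and 0 rose against PBS, beside 49.1% and 35.6% of all genes called in either direction. Chrm4, the Gi/o-coupled receptor abundant in striatal projection neurons, lies at chr2:91757594-91759033 on the plus strand (GRCm39). It had 40.2, 37.1 and 39.3 CPM in PBS, 29.8, 28.7 and 27.8 at 1 day and 17.6, 17.8 and 17.6 at 7 days. The groups did not overlap, and log2 fold changes were -0.44 ± 0.07 at 1 day (edgeR adjusted p = 2.78e-06), -1.14 ± 0.08 at 7 days (edgeR adjusted p = 1.11e-17) and -0.70 ± 0.08 from 1 day to 7 days (edgeR adjusted p = 1.99e-10). For each 1000 CPM of the striatal marker sum there were 28.2 ± 1.31, 32.4 ± 1.21 and 29.8 ± 0.444 CPM of Chrm4 in the PBS group and at 1 and 7 days after LPS (SD, n = 3). The means per striatal marker CPM in the LPS groups were thus not below that in PBS, a measure that was not tested.

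Chrm1, the Gq-coupled receptor of cortical and hippocampal neurons, had 135, 129.97 and 135 CPM in PBS, 152, 146 and 143 at 1 day and 74.3, 87.0 and 83.7 at 7 days (chr19:8641153-8660951, plus strand, GRCm39). It was slightly higher at 1 day (0.14 ± 0.05, edgeR adjusted p = 0.0151) and lower at 7 days, against PBS (-0.71 ± 0.05, edgeR adjusted p = 3.1e-17) and against 1 day (-0.84 ± 0.05, edgeR adjusted p = 2.05e-20). The rise at 1 day was lost without PBS replicate 2 (0.12, edgeR adjusted p = 0.0654) or without LPS 1 day replicate 1 (0.11, edgeR adjusted p = 0.0839). For each 1000 CPM of the cortical marker sum there were 126 ± 3.16, 118 ± 1.78 and 87.4 ± 6.64 CPM of Chrm1 in the PBS group and at 1 and 7 days after LPS. Chrm3, a second Gq-coupled receptor, had 38.3, 37.8 and 37.1 CPM in PBS, 33.6, 39.0 and 33.1 at 1 day and 24.3, 28.6 and 29.3 at 7 days. It was lower at 7 days than in PBS (-0.46 ± 0.08, edgeR adjusted p = 2.65e-06) and than at 1 day (-0.36 ± 0.08, edgeR adjusted p = 9.14e-05).

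Chrm2, the Gi/o-coupled receptor that serves as autoreceptor on cholinergic terminals, had 32.7, 27.8 and 29.3 CPM in PBS, 30.4, 24.9 and 21.8 at 1 day and 28.8, 26.8 and 25.9 at 7 days. It was called lower at 1 day (-0.23 ± 0.09, edgeR adjusted p = 0.0269), the only call among these genes in which the libraries of both groups overlapped. The call was lost with DESeq2 (adjusted p = 0.0788), without PBS replicate 1 (-0.16, edgeR adjusted p = 0.166), without LPS 1 day replicate 2 (-0.21, edgeR adjusted p = 0.0882) and without LPS 1 day replicate 3 (-0.13, edgeR adjusted p = 0.296). Without LPS 1 day replicate 1, its log2 fold change against PBS was -0.36, and a rise from 1 day to 7 days was called (0.22, edgeR adjusted p = 0.0441). The 3 cholinergic neuron markers, Chat, Slc18a3 and Slc5a7, summed to 43.0 to 46.6 CPM in PBS, 29.9 to 32.2 at 1 day, where all 3 were lower, and 49.7 to 53.9 at 7 days, and their part in the Chrm2 values was not tested. Chrm5, a low Gq-coupled receptor gene known from dopamine neurons, had 3.94, 4.11 and 4.29 CPM in PBS, 4.16, 3.05 and 4.50 at 1 day and 3.37, 3.15 and 3.43 at 7 days, and was called in no comparison. In the muscarinic FPKM sum, Chrm4 held 44.2 ± 0.466% in PBS, 36.4 ± 0.087% at 1 day and 34.3 ± 1.04% at 7 days, and Chrm1 33.6 ± 0.401%, 41.2 ± 0.282% and 35.1 ± 1.67%. Chrm2 held 8.09 ± 0.442%, 7.70 ± 1.00% and 12.6 ± 1.09%, with every 7 day library above all others.

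Grouped by coupling, the 6 tested Gs-coupled genes gave 0 higher and 3 lower at each time against PBS. The 11 Gi/o-coupled genes gave 0 higher and 5 lower at each time. Of the 8 Gq-coupled genes, 1 was higher and 2 were lower at 1 day, and 0 were higher and 6 lower at 7 days. From 1 day to 7 days 6 of the 8 Gq-coupled genes (Adra1a, Adra1b, Chrm1, Chrm3, Htr2a and Htr2c) were lower, beside 4 of the 11 Gi/o-coupled and 0 of the 6 Gs-coupled genes. The shares called at 1 day were 50% for Gs, 45.5% for Gi/o and 37.5% for Gq beside 49.1% of all genes, and at 7 days against PBS 50%, 45.5% and 75% beside 35.6%. From 1 day to 7 days 29.1% of all genes were lower. The difference between coupling classes was not tested. In all, 18 of the 26 tested genes were called in at least 1 comparison, and Adra1d, Adra2a, Adrb3, Chrm5, Drd3, Drd5, Htr1a and Htr4 in none. The share of all genes called in at least 1 comparison was not computed, but 56.6% were called from 1 day to 7 days alone.

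Genes that carry the signal of these receptors were read from 5 lists, and their counts stand beside 24.9% of all genes higher and 24.2% lower at 1 day, and 16.8% higher and 18.9% lower at 7 days against PBS. Of the 17 Gs and cyclic AMP genes, 1 rose and 6 fell at 1 day, and 1 rose and 11 fell at 7 days against PBS, with a median log2 fold change of -0.07 at 1 day. The share called was 41.2% at 1 day, below the 49.1% of all genes, and 70.6% at 7 days beside 35.6%. Adcy5, the main striatal adenylyl cyclase, had mean levels of 663, 419 and 351 CPM in the PBS group and at 1 and 7 days after LPS (-0.66 ± 0.04 at 1 day, edgeR adjusted p = 3.42e-21). Gnal, the striatal and olfactory Gs-type subunit, had 413, 279 and 266 CPM (-0.57 ± 0.04, edgeR adjusted p = 9.2e-18), and Prkar2b, a regulatory subunit of protein kinase A, 93.8, 52.8 and 61.1 CPM (-0.83 ± 0.06, edgeR adjusted p = 1.32e-17). Of the 9 genes for Gi/o subunits and the potassium channels they open, 0 rose and 3 fell at each time against PBS (median -0.06 at 1 day, 33.3% called at each time beside 49.1% and 35.6% of all genes): Kcnj9, a channel subunit (138, 102 and 129.7 CPM, -0.44 ± 0.05, edgeR adjusted p = 4.09e-11), Gnai2 (200.4, 172 and 207 CPM, -0.22 ± 0.04, edgeR adjusted p = 2.34e-05) and Gnao1 (862, 786 and 746 CPM, -0.13 ± 0.03, edgeR adjusted p = 0.00086) were the 3 at 1 day.

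Of the 13 Gq and phospholipase C genes, 6 rose and 2 fell at 1 day, and 4 rose and 6 fell at 7 days against PBS (median 0.06 at 1 day). The shares called were 61.5% and 76.9%, beside 49.1% and 35.6% of all genes. Prkca, a protein kinase C, had 155, 180.3 and 120.1 CPM (0.21 ± 0.04 at 1 day, edgeR adjusted p = 2.83e-05). Plcb4, the phospholipase of thalamic relay and Purkinje neurons, had 219.8, 193 and 249 CPM (-0.19 ± 0.04, edgeR adjusted p = 9.15e-05), and Itpr1, the calcium release channel at its highest in Purkinje cells, 541, 488 and 705 CPM (-0.15 ± 0.03, edgeR adjusted p = 0.000386). Both Plcb4 and Itpr1 were higher at 7 days than in PBS, in the libraries with cerebellar markers, and the part of cerebellum in these values was not tested. Of the 13 cyclic nucleotide phosphodiesterase genes, 2 rose and 8 fell at 1 day and 2 rose and 10 fell at 7 days (median -0.41 at 1 day), with 76.9% and 92.3% called beside 49.1% and 35.6% of all genes. Pde10a, a striatal phosphodiesterase, had 608, 308 and 273 CPM (-0.98 ± 0.04, edgeR adjusted p = 1.81e-27), Pde1b 452, 288 and 227 CPM (-0.65 ± 0.04, edgeR adjusted p = 5.64e-20), and Pde4b rose to 235 CPM from 161 CPM and stood at 136 CPM at 7 days (0.55 ± 0.04 at 1 day, edgeR adjusted p = 9.78e-16).

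Of the 20 receptor kinases, arrestins and RGS proteins, which switch off receptors and G proteins, 2 rose and 9 fell at 1 day and 4 rose and 12 fell at 7 days (median -0.19 at 1 day). The 55% called at 1 day is near the 49.1% of all genes, and 80% were called at 7 days beside 35.6%. Rgs4 had 384, 236 and 210.5 CPM (-0.70 ± 0.04, edgeR adjusted p = 6.57e-21), Rgs9, also in the striatal list, 147, 87.0 and 59.4 CPM (-0.76 ± 0.05, edgeR adjusted p = 2.11e-18), and Rgs2 77.7, 44.8 and 53.0 CPM (-0.80 ± 0.06, edgeR adjusted p = 5.1e-16). Adcy5, Gnal, Pde10a, Pde1b and Rgs9 are known to be abundant in striatal neurons, and their lower values stood beside the lower striatal marker sum, whose part in these values was not tested. These lists were chosen with earlier results of the data known and give no independent evidence.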

How the data were processed

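Gene counts and FPKM for 9 libraries were used as deposited. The authors made the count values from reads aligned to GRCm39. The submitters' processing notes name TopHat2, HISAT2 and HTSeq. The aligner chosen, all versions and any strand setting are not given in these sources. FPKM was computed by the authors from gene length and library total, and recomputing it gave a largest relative difference of 1.6e-07. The position and length columns, which hold other values, were used as deposited. Levels between genes are compared in FPKM.

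Of 21899 genes, 3516 had no count and 14837 passed filterByExpr (minimum count 10). Counts were fitted with edgeR 4.0.16 (R 4.3.3) quasi-likelihood on all 9 libraries, with group means and TMM factors of 0.983 to 1.03, on 6 residual and 43.4 prior degrees of freedom and a common biological coefficient of variation of 4.15%. Tests were two-sided, with p-values corrected over the genes that passed (Benjamini-Hochberg). The fit was tested on simulated data. CPM uses the TMM factors. Genes that failed the filter are given by counts, with exact 95% intervals for counting error.

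The receptor genes and all lists were chosen with earlier results of these data known. Genes with a mean of at least 1 CPM are given by library, and from each signalling list the 3 genes with the smallest p at 1 day. Ratios to marker sums were added after the data were seen and have no test. Alternatives were DESeq2 1.42.0, 3 other scalings, no filter on low counts, a fit of only the groups compared, autosomes only, a replicate block, and each library left out. Protein sequences were not used here. A receptor gene that the naming rule takes and a marker gene are not reported here, and counts, shares and sums of receptors and lists leave them out.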

Additional observations from a re-analysis of the deposited data

How the results depend on the processing

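With DESeq2, RLE, upper-quartile or library total scaling, no low count filter, only the groups compared, autosomes only or the replicate block, every count of receptor genes called lower or higher stayed within 1.5 times the value in the text. The labels do not say whether replicate numbers pair the libraries. Correlations of deviations between same-numbered libraries were -0.0232 to 0.027, which shows no sign of pairing, but 3 libraries in a group are too few to exclude it. With the replicate block there were 2 higher and 10 lower at 1 day, 0 and 14 at 7 days against PBS, and 1 and 11 from 1 day to 7 days. Leaving out 1 library at a time gave 1 to 2 higher and 8 to 10 lower at 1 day, 0 to 1 higher and 13 to 15 lower at 7 days against PBS, and 0 to 2 higher and 10 to 11 lower from 1 day to 7 days. No called gene changed direction in any of the 17 alternatives. A total of 35 values in 13 genes changed sign between settings, all called in neither, and none was larger than 0.174 in size on the log2 scale. Where leaving out 1 library left 2 in a group, the spread was shared over all libraries. Low counts kept Drd4, Htr2b and Htr3b out of the test.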
